A study of Mus musculus with 16 samples.

Results

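The 34 genes described here encode the enzymes of glycolysis and the glucose and lactate transporters of the cell surface. They also encode subunits of pyruvate dehydrogenase and the enzymes that switch it off or on. They were chosen by symbol from a list in pathway order, and all 34 were found among the 23284 gene symbols of the files and passed the filter on low counts. Reads per gene were measured by RNA sequencing in 16 mouse lung tumors, 9 of genotype Max -/- (null tumors 1 to 9) and 7 of genotype wild type (wild-type tumors 1 to 7). Both groups carry the label RP, which the labels do not spell out; in this field it usually stands for floxed Rb1 and Trp53, a mouse model of small cell lung cancer. All mice shared the mixed 129/SvJ; C57BL/6 background, and genes were deleted after adenovirus with Cre driven by the CMV promoter, which is not restricted to one cell type, had been given into the trachea. Whether each tumor had a mouse of its own is not in the labels, so tumors may share a mouse and need not be independent. The spread behind every p-value is that between these 16 tumors, part of which may be technical. Age is not given in the sources used here.

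Glycolysis splits glucose into pyruvate and yields ATP and NADH. Hexokinase traps glucose in the cell, phosphofructokinase commits it to the pathway, and pyruvate is then reduced to lactate by lactate dehydrogenase or oxidised by the pyruvate dehydrogenase complex, which the pyruvate dehydrogenase kinases switch off. MAX is the partner that MYC proteins need to bind DNA at the E-box, and several genes of glycolysis are textbook MYC targets. Lung tumors of the small cell type have high glucose uptake and express neuroendocrine genes.

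The libraries held 8.665 to 15.1 M reads in genes. Levels are given in CPM (counts per M reads, with TMM-scaled library sizes) and differences as log2 of the fold between groups, null minus wild-type, fitted with edgeR's quasi-likelihood test, with p-values adjusted by the Benjamini-Hochberg method over 14825 tested genes. A gene is said to have risen or fallen where the adjusted p was below 0.05. Max itself measured 74.45 ± 5.98 CPM (SD, n = 9) against 65.8 ± 7.975 CPM (n = 7), and its log2 difference was 0.18 ± 0.11, SE, adjusted p = 0.2805, but the count covers the whole gene and cannot check the genotype, so directions are between groups as labelled. Multiply aligned reads, those with more than 1 place in the genome, were 9.17% to 11.8% of reads in null tumors and 12.3% to 22.2% in wild-type tumors, with 16.01%, 20.8% and 22.2% in wild-type tumors 2, 4 and 7. The 12 neuroendocrine markers fixed for the tissue summed to 4488 to 9040 CPM in null tumors and 4531 to 28225 CPM in wild-type tumors, so neuroendocrine transcripts were present in every tumor. The highest wild-type sums were mostly 1 gene, Calca, at 23460 CPM in wild-type tumor 2 and 9425 CPM in wild-type tumor 7.

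The E-box CACGTG, the letters bound by MYC and MAX together, lies in the start-site window of some of these genes, and 4 windows are printed because their genes stand at the ends of the pathway and include 3 that rose. Windows reach from 250 bases before to 50 bases after each RefSeq start (build GRCm38.p6), are written from 5′ to 3′ on the strand of the gene, and have each CACGTG in capitals.
Hk2, chr6:82774405-82774704, minus strand: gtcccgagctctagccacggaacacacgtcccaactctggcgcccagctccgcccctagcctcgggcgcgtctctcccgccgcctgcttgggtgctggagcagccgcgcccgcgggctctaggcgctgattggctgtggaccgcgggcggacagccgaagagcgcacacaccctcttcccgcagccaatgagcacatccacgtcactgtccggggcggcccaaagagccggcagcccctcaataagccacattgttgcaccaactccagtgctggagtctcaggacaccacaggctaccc
Ldha, chr7:46845554-46845853, plus strand: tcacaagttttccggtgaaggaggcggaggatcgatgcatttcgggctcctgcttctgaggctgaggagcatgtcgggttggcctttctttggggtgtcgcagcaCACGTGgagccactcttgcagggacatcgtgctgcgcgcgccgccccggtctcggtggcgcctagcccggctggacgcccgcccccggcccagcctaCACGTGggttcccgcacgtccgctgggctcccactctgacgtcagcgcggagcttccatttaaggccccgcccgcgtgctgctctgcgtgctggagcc
Slc16a1, chr3:104638414-104638713, plus strand: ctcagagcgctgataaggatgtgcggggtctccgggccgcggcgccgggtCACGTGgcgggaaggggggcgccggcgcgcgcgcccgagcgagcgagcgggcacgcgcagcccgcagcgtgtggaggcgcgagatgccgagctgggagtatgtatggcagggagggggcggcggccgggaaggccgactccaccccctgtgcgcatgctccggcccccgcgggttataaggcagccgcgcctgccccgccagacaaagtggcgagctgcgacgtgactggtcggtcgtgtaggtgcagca
Pdk2, chr11:95041322-95041621, minus strand: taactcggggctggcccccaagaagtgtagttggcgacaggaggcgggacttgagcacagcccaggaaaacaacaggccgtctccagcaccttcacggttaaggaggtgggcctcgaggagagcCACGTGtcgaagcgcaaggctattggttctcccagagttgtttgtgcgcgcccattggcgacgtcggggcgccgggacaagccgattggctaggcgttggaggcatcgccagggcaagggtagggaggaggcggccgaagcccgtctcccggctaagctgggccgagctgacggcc
The Ldha window holds the motif 145 and 48 bases before the start, the Slc16a1 window 200 bases and the Pdk2 window 126 bases before it, and the Hk2 window does not hold it. CACGTG reads the same on both strands. RefSeq gave 48 windows for 32 of the 34 genes, and 6 windows (12.5%), 1 each of Pfkm, Pfkfb2, Pfkfb3, Ldha, Slc16a1 and Pdk2, held CACGTG, against 7.2% of 32851 mouse windows of the same length. The shorter string ACGTG, the core of the hypoxia response element, which every CACGTG also contains, was found on either strand in 22 of the 48 windows (45.8%) and in 19.6% of all windows. A match describes the letters only.

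Of the 34 genes, 7 rose in null tumors, 0 fell and 27 did not pass. The 7 were the glucose transporter gene Slc2a3, the hexokinase genes Hk1 and Hk2, the lactate transporter gene Slc16a1, the pyruvate dehydrogenase kinase genes Pdk1 and Pdk2, and Pdha1, which encodes a subunit of pyruvate dehydrogenase itself. Over all tested genes 7.40% were called higher and 8.64% lower. At an unadjusted p under 0.05, 13 of the 34 were higher and 2 lower, where 14.9% and 17.9% of all genes were. The median log2 difference of the 34 was 0.20 with 20 above 0, against -0.03 and 47.6% above 0 over all tested genes. In 0 of the 34 genes did the groups stand fully apart, as they did in 1.56% of all tested genes.

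**Figure D1:**
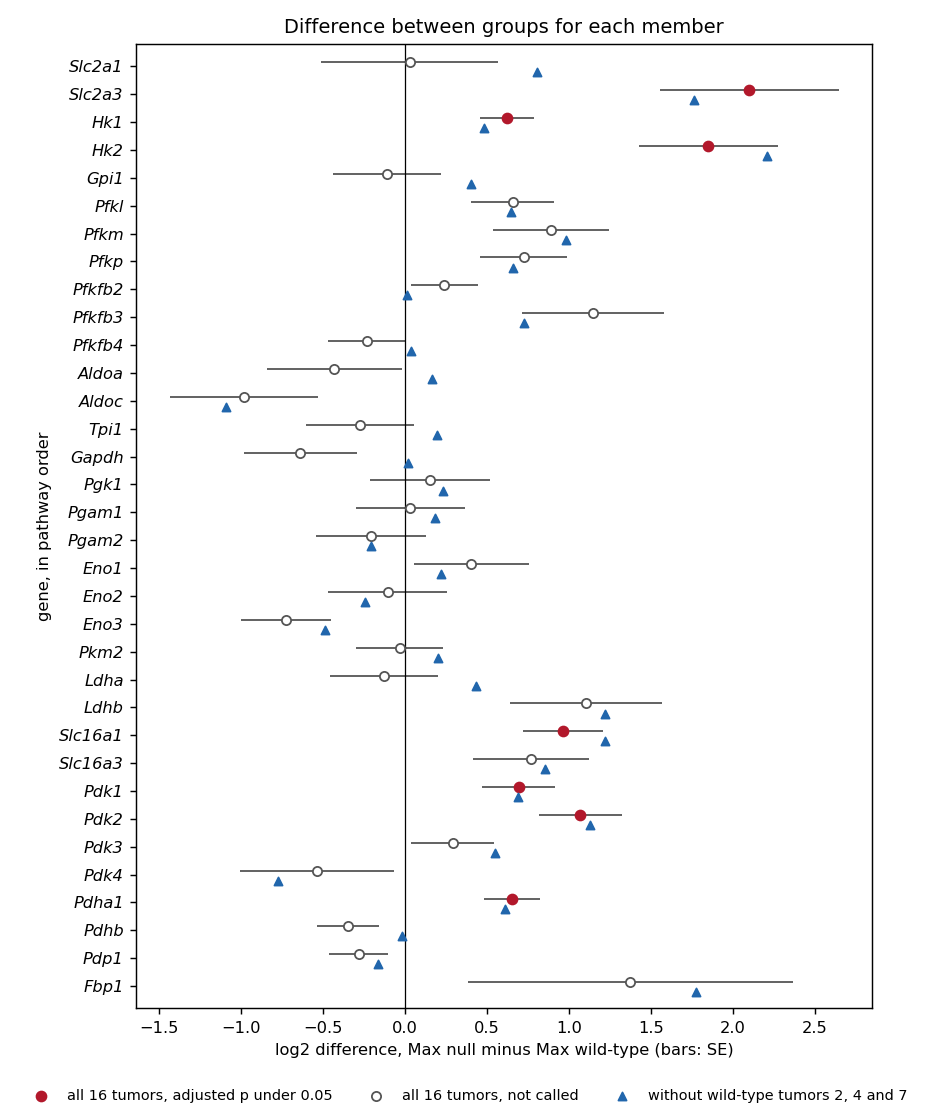
Log2 difference (null minus wild-type, x axis) of the 34 genes in pathway order (y axis). Circles with SE bars are from all 16 tumors, filled where the adjusted p was below 0.05, and triangles leave out wild-type tumors 2, 4 and 7. The filled circles are Slc2a3, Hk1, Hk2, Slc16a1, Pdk1, Pdk2 and Pdha1, all to the right of 0.

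These calls depended on the libraries and on how they were treated. Without wild-type tumors 2, 4 and 7, which have the highest multiply aligned shares, 1 of the 34 genes was called, Slc16a1, higher at 1.22 (0.805% of all genes were called higher there), with a median of 0.42 and 27 of 34 above 0. With a correction for transcript length and GC content, 4 were called higher (4.01% of all genes), Slc2a3, Slc16a1, Pdk2 and Pdha1. When the multiply aligned share of each library entered as a covariate, 0 were called in either direction (0.0675% of all genes), at a median of 0.74, in a fit where the share and the labelled genotype cannot be told apart.

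Glucose enters these cells through 2 listed transporters, and the minor one rose. Slc2a3 encodes GLUT3, a high-affinity transporter known from neurons and white blood cells. It measured 2.23, 7.655 and 36.4 CPM in the null tumors (lowest, median, highest) and 0.720, 2.16 and 6.48 CPM in the wild-type tumors. Null tumor 5 was far above the rest at 36.4 CPM, 6 of 9 null tumors lay above every wild-type tumor, and null tumors 3, 8 and 9 fell inside the wild-type range. The log2 difference was 2.10 ± 0.54, SE, adjusted p = 0.0187 (range over its alternatives 0.000722 to 0.3725), and it was 1.65 and still called without null tumor 5. Slc2a1 encodes GLUT1, the widespread basal transporter, and its groups overlapped almost completely at 22.9 to 355 CPM (median 100.5) in null and 48.4 to 455 CPM (median 79.2) in wild-type tumors. Its log2 difference was 0.030 ± 0.54, SE, adjusted p = 0.975, and it was 0.81 without wild-type tumor 7, the highest at 455 CPM, with an adjusted p of 0.262. Per kb of transcript, Slc2a1 stood at 40.4 and 39.6 CPM per kb in null and wild-type tumors and Slc2a3 at 2.93 and 0.676, so GLUT1 transcripts were the more abundant in the mean of both groups.

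Both hexokinase genes rose. Hk2, the inducible hexokinase bound to mitochondria in many tumors, measured 25.4, 74.3 and 178.5 CPM in the null tumors (lowest, median, highest) and 10.4, 20.2 and 47.3 CPM in the wild-type tumors. The highest were null tumors 7, 8 and 9 at 178.5, 137 and 134 CPM, and only null tumors 2 and 5, at 26.7 and 25.4 CPM, lay below the highest wild-type tumor. The log2 difference of Hk2 was 1.85 ± 0.42, SE, adjusted p = 0.01065 (range over its alternatives 0.000229 to 0.09325). It was larger without wild-type tumors 2, 4 and 7, at 2.21, but narrowly missed the threshold there (adjusted p = 0.0552), and it was 1.36 with the length and GC correction (adjusted p = 0.0569). Hk1, the housekeeping hexokinase of brain and most tissues, measured 107, 146 and 191 CPM in the null tumors (lowest, median, highest) and 59.9, 105 and 138.5 CPM in the wild-type tumors. Null tumor 1 was the lowest of its group, with the next at 135 CPM, and wild-type tumor 1 the highest of its group, with the next at 106 CPM. The log2 difference of Hk1 was 0.62 ± 0.16, SE, adjusted p = 0.0197 (range over its alternatives 0.00495 to 0.4599), 0.48 without wild-type tumors 2, 4 and 7 and 0.30 with the correction for length and GC content, and it was called in neither.

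**Figure D2:**
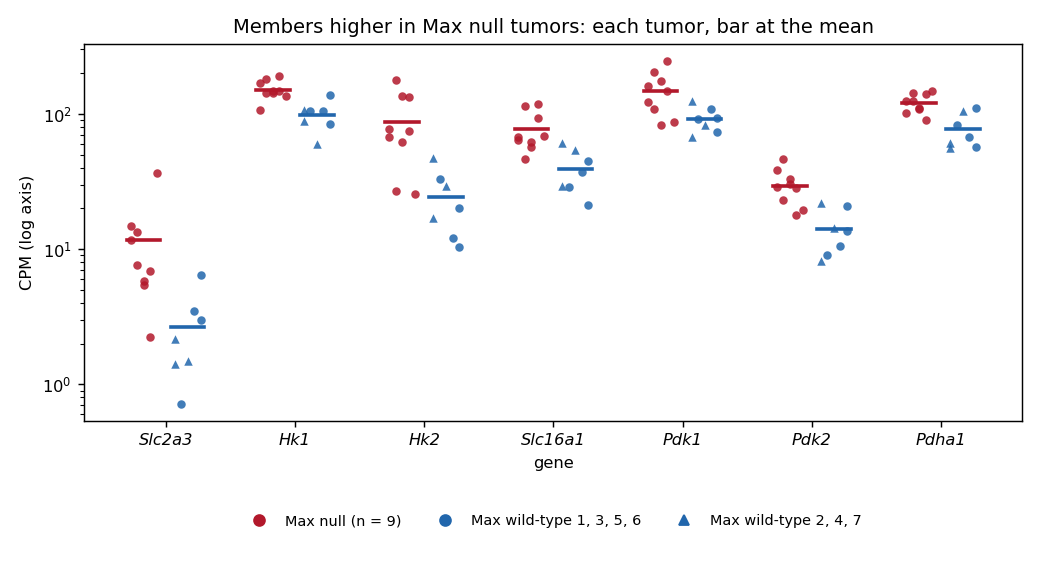
CPM on a log axis (y) of the 7 genes that rose (x), with 1 point per tumor and a bar at each group's mean. Red circles are the 9 null tumors, blue circles wild-type tumors 1, 3, 5 and 6, and blue triangles wild-type tumors 2, 4 and 7. For each gene the groups overlap, and the mean of the null tumors is the higher.

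The steps from Gpi1 to Tpi1 gave 0 calls. The 3 phosphofructokinase genes, which encode the committed step, had adjusted p-values nearer to the threshold than those of Gpi1, Aldoa, Aldoc and Tpi1. Pfkl, the liver form, measured 139.8 to 385 CPM (median 247) in null and 82.2 to 272 CPM (median 164) in wild-type tumors (log2 difference 0.66 ± 0.25, SE, adjusted p = 0.0791). Pfkp, the platelet form, measured 116 to 329 CPM (median 212) in null and 74.7 to 174 CPM (median 131) in wild-type tumors (0.73 ± 0.27, SE, adjusted p = 0.0689), with null tumors 7, 8 and 9 at 327, 329 and 318 CPM, although 17.4% of its exon bases are shared with Pitrm1 on the opposite strand. Pfkm, the muscle form, measured 12.6 to 86.6 CPM (median 50.5) in null and 6.66 to 41.9 CPM (median 28.9) in wild-type tumors (0.89 ± 0.36, SE, adjusted p = 0.0905). In each of the 3 genes the wild-type range began below the null range and the groups overlapped. Pfkl was called with limma-voom and without null tumor 5 or wild-type tumor 7, Pfkp with DESeq2 and without null tumor 5, and Pfkm without null tumor 9, each in the higher direction. Gpi1, which turns glucose 6-phosphate into its fructose isomer, measured 298 to 1029 CPM (median 507) in null and 373 to 1665 CPM (median 409.9) in wild-type tumors (log2 difference -0.11 ± 0.33, SE, adjusted p = 0.851).

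Both aldolase genes and the triose phosphate isomerase gene had their highest value in wild-type tumor 7. Aldoa, the main aldolase, was at 3591 CPM there, above 1362 CPM in the next wild-type tumor and 1430 CPM in the highest null tumor. Its log2 difference was -0.43 ± 0.41, SE, adjusted p = 0.494, and 0.084 without that tumor. Tpi1, whose enzyme interconverts the triose phosphates, was at 2405 CPM in wild-type tumor 7 (log2 difference -0.27 ± 0.33, SE, adjusted p = 0.597, and 0.12 without it). Aldoc, the brain aldolase, measured 9.08 to 108 CPM (median 74.75) in null and 43.2 to 252 CPM (median 146) in wild-type tumors, with wild-type tumors 1, 5, 6 and 7 all above the highest null tumor. Its log2 difference, -0.98 ± 0.45, SE, adjusted p = 0.1401, was the lowest of the 34 genes and did not pass.

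The genes that make and remove fructose 2,6-bisphosphate, the activator of phosphofructokinase, did not pass either. Pfkfb3, the inducible form with strong kinase activity, measured 29.8, 57.75 and 178 CPM in the null tumors (lowest, median, highest) and 9.24, 32.1 and 74.4 CPM in the wild-type tumors. Null tumors 7, 8 and 9 were the highest and wild-type tumors 2 and 4 the lowest, at 9.24 and 14.9 CPM. The log2 difference was 1.15 ± 0.43, SE, adjusted p = 0.07504, 1.16 and called with DESeq2 (adjusted p = 0.0376), 1.45 and called without wild-type tumor 6 (adjusted p = 0.0358), and 0.73 and not called without wild-type tumors 2, 4 and 7. Pfkfb2, the heart form, measured 48.7 to 89.4 CPM (median 63.4) in null and 26.7 to 90.8 CPM (median 53.8) in wild-type tumors (log2 difference 0.24 ± 0.20, SE, adjusted p = 0.434). Pfkfb4, the testis form that hypoxia also induces, measured 14.3 to 30.4 CPM (median 26.1) in null and 10.3 to 43.2 CPM (median 26.5) in wild-type tumors (log2 difference -0.23 ± 0.24, SE, adjusted p = 0.531).

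The steps from Gapdh to pyruvate kinase gave 0 calls, and the most abundant transcripts of the 34 genes lay in and around them. In mean CPM per kb of null and wild-type tumors, Ldha stood at 749.5 and 818, Pkm2 (the pyruvate kinase gene now named Pkm) at 683 and 698, Aldoa at 613 and 825, Gapdh at 535.5 and 832 and Tpi1 at 509 and 615. Gapdh, which oxidises glyceraldehyde 3-phosphate and is often used as a reference gene, measured 452, 681 and 1263 CPM in the null tumors (lowest, median, highest) and 615, 807 and 3521 CPM in the wild-type tumors. Wild-type tumor 7 stood alone at the top, above 1045 CPM in the next wild-type tumor and every null tumor. The log2 difference of Gapdh was -0.64 ± 0.34, SE, adjusted p = 0.205, and -0.064 without wild-type tumor 7. Pkm2 measured 1064 to 3037 CPM (median 1508) in null and 1295 to 3353 CPM (median 1405) in wild-type tumors and its log2 difference was -0.031 ± 0.27, SE, adjusted p = 0.9475. The first ATP-forming enzyme of the pathway, encoded by Pgk1, measured 325 to 1613 CPM (median 594) in null and 342 to 1304 CPM (median 547) in wild-type tumors, with null tumors 7 and 9 and wild-type tumors 7 and 6 the highest (0.16 ± 0.37, SE, adjusted p = 0.803). Pgam1, the common phosphoglycerate mutase, measured 175 to 662 CPM (median 345) in null and 155 to 831.5 CPM (median 274) in wild-type tumors (0.035 ± 0.33, SE, adjusted p = 0.955). Pgam2, its muscle form, stayed at or below 4.91 CPM in all 16 tumors, and the 10 striated muscle markers summed to 3.13 to 19.7 CPM in null tumors and 1.93 to 24.7 CPM in wild-type tumors.

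Enolase was counted from 3 genes. Eno1, the ubiquitous enolase, measured 15.6 to 75.2 CPM (median 47.6) in null and 10.5 to 72.8 CPM (median 35.9) in wild-type tumors (log2 difference 0.41 ± 0.35, SE, adjusted p = 0.441), which is 24.9 and 18.8 CPM per kb in null and wild-type tumors. Of the 50-base windows of the Eno1 transcript, 72.2% also occur in a transcript of another annotated gene, and reads from such windows can align to more than 1 place. Eno2, the neuron-specific enolase used as a serum marker of small cell lung cancer, measured 7.07 to 78.7 CPM (median 37.98) in null and 22.8 to 79.4 CPM (median 40.7) in wild-type tumors (-0.10 ± 0.36, SE, adjusted p = 0.867), with null tumor 9 the lowest at 7.07 CPM. Eno3, the muscle enolase, measured 9.43 to 20.8 CPM (median 15.4) in null and 9.84 to 46.8 CPM (median 25.02) in wild-type tumors (-0.72 ± 0.27, SE, adjusted p = 0.0766), with 4 wild-type tumors above every null tumor. Eno3 was called lower without wild-type tumor 5 (-0.83) and without wild-type tumor 6 (-0.86).

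Among the lactate genes the transporter Slc16a1 rose. It encodes MCT1, a proton-linked carrier that moves lactate in or out of the cell, and measured 46.4, 66.97 and 119 CPM in the null tumors (lowest, median, highest) and 21.3, 37.3 and 60.8 CPM in the wild-type tumors. All null tumors except 2 and 3 lay above the highest wild-type tumor, and 5 of 7 wild-type tumors lay below the lowest null tumor. The log2 difference was 0.96 ± 0.24, SE, adjusted p = 0.01715 (range over its alternatives 0.00279 to 0.161). It was the 1 gene of the 34 that was still called without wild-type tumors 2, 4 and 7 (adjusted p = 0.0435), and each fit without 1 tumor also called it. Slc16a3, encoding the lactate exporter MCT4, measured 47.6 to 348 CPM (median 145) in null and 54.3 to 174 CPM (median 103) in wild-type tumors, highest in null tumors 9 and 7 at 348 and 339 CPM, and did not pass (log2 difference 0.77 ± 0.35, SE, adjusted p = 0.138).

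The lactate dehydrogenase genes did not pass. Ldha, which favours lactate formation, measured 653, 1304 and 1992 CPM in the null tumors (lowest, median, highest) and 631, 1247 and 3773 CPM in the wild-type tumors. Wild-type tumor 7 was the highest of all, wild-type tumor 1 the lowest, and the other wild-type tumors lay among the null tumors. The log2 difference was -0.13 ± 0.33, SE, adjusted p = 0.8245, and 0.30 without wild-type tumor 7. Ldhb, the heart form, measured 11.5 to 93.6 CPM (median 33.03) in null and 6.585 to 35.3 CPM (median 20.1) in wild-type tumors, with null tumors 1, 2, 3 and 6 above the highest wild-type tumor (log2 difference 1.11 ± 0.46, SE, adjusted p = 0.1045).

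Among the 7 genes of pyruvate dehydrogenase and its control, 3 rose, and they act in opposite senses. Pdk1 and Pdk2 encode kinases that inactivate pyruvate dehydrogenase, and Pdha1 the catalytic subunit that they phosphorylate. Pdk2, the most widely expressed of the kinases, measured 17.9, 28.6 and 46.3 CPM in the null tumors (lowest, median, highest) and 8.19, 13.6 and 21.98 CPM in the wild-type tumors. In 7 of 9 null tumors it was above every wild-type tumor, and 5 of 7 wild-type tumors were below every null tumor. Its log2 difference was 1.07 ± 0.25, SE, adjusted p = 0.0128 (range over its alternatives 0.0005975 to 0.164), and it was 1.13 and not called when wild-type tumors 2, 4 and 7 were left out. Pdk1, a kinase induced by hypoxia, measured 83.3, 148 and 245.5 CPM in the null tumors (lowest, median, highest) and 67.02, 92.2 and 125 CPM in the wild-type tumors. Null tumors 9 and 7 were the highest and null tumors 2, 3, 5 and 6 fell inside the wild-type range. Its log2 difference was 0.69 ± 0.22, SE, adjusted p = 0.0421 (range over its alternatives 0.0218 to 0.275), and this call was lost in 11 of the 16 fits without 1 tumor, at values from 0.57 to 0.78 over those 16.

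Pdha1 measured 90.6, 124 and 148 CPM in the null tumors (lowest, median, highest) and 55.4, 66.9 and 111 CPM in the wild-type tumors. There were 5 wild-type tumors below every null tumor and wild-type tumors 4 and 6 inside the null range. Its log2 difference was 0.65 ± 0.17, SE, adjusted p = 0.0206 (range over its alternatives 0.00387 to 0.239), and 21.2% of its exon bases are shared with Map3k15 on the opposite strand, whose reads cannot be told apart where strand was not used in counting. Pdhb, the partner subunit in the same enzyme, did not pass. It measured 80.4 to 132 CPM (median 117) in null and 79.55 to 243 CPM (median 134) in wild-type tumors, with wild-type tumor 7 highest at 243 CPM (log2 difference -0.35 ± 0.19, SE, adjusted p = 0.206). Pdk3 measured 33.6 to 98.2 CPM (median 52.98) in null and 29.1 to 90.9 CPM (median 47.9) in wild-type tumors (0.29 ± 0.25, SE, adjusted p = 0.443) and the fasting-induced kinase gene Pdk4 1.05 to 8.58 CPM (median 5) in null and 1.32 to 17.4 CPM (median 6.21) in wild-type tumors (-0.53 ± 0.47, SE, adjusted p = 0.450). Pdp1, encoding the phosphatase that reactivates the enzyme, measured 32.5 to 72.6 CPM (median 50.7) in null and 39.1 to 85.5 CPM (median 70.6) in wild-type tumors (-0.28 ± 0.18, SE, adjusted p = 0.292).

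Fbp1, which encodes fructose-1,6-bisphosphatase and works against glycolysis, had 1 tumor far from the others. It measured 2.096, 17.8 and 682 CPM in the null tumors (lowest, median, highest) and 8.69, 16.6 and 109.8 CPM in the wild-type tumors. The value of 682 CPM came from null tumor 4 alone, and the next null tumor stood at 48.9 CPM, below wild-type tumors 2 and 3 at 109.8 and 77.3 CPM. The log2 difference was 1.38 ± 0.99, SE, adjusted p = 0.351, and -0.80 without null tumor 4, so its sign rests on that tumor.

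Single tumors stood out over many of the genes. Wild-type tumor 7 had the highest CPM of its group in 17 of the 34 genes and of all 16 tumors in 10, namely Slc2a1, Gpi1, Aldoa, Aldoc, Tpi1, Gapdh, Pgam1, Pkm2, Ldha and Pdhb. Its TMM-scaled library size was 7.416 M for 9.928 M reads in genes, the widest gap of the 16 libraries. The CPM of this tumor and its ranks therefore depend on that scaling. In the null group, tumor 7 was highest in 10 genes, tumor 9 in 7 and tumor 8 in 5. Wild-type tumor 1 was the lowest of its group in 13 genes and null tumor 5 in 11. The 13 hypoxia-responsive genes outside glycolysis summed to 2767 CPM in null tumor 7 and 2647 CPM in wild-type tumor 7, the highest of each group, and to 1025 CPM in null tumor 5 and 1246 CPM in wild-type tumor 1, the lowest of each group. The part of hypoxia in the differences was not tested, and the sums of the groups overlapped (1025 to 2767 CPM in null tumors and 1246 to 2647 CPM in wild-type tumors).

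**Figure D3:**
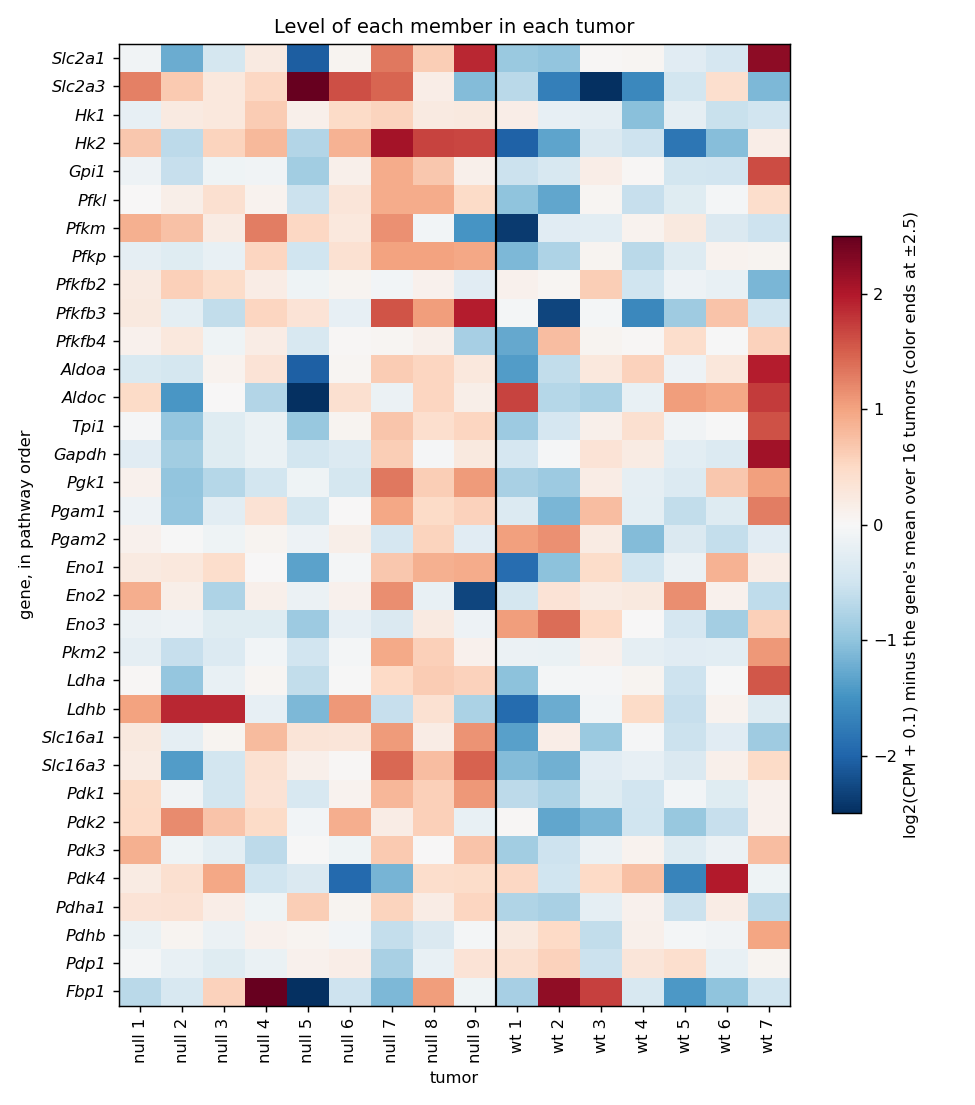
Log2(CPM + 0.1) of each of the 34 genes (rows, pathway order) in each tumor (columns), minus the gene's mean over the 16 tumors, with the color ending at ±2.5. A line separates the 9 null from the 7 wild-type tumors. Wild-type tumor 7 is far above the mean in Slc2a1, Gpi1, Aldoa, Tpi1, Gapdh and Ldha, and null tumors 7, 8 and 9 are above it in Hk2, Pfkl, Pfkp, Pfkfb3 and Slc16a3.

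The use of alternative genes for the same step was measured as a share of reads per kb of transcript within each family, and 8 shares were compared. After adjustment 0 of the 8 passed. The test used all 11440 splits of the 16 tumors and was two-sided. Hk2 came nearest, as a share of Hk1 and Hk2. It was 12.6%, 26.1% and 43.5% in null tumors (lowest, median, highest) and 5.51%, 15.7% and 29.4% in wild-type tumors. Of the null tumors, 4 lay above every wild-type tumor, 3 wild-type tumors lay below every null tumor, and the mean share was 28.9 ± 12.05% (SD, n = 9) against 16.7 ± 9.304% (n = 7), exact permutation p = 0.0465, adjusted over the 8 shares 0.3285. Slc2a3 was 0.514%, 6.24% and 56.7% in null tumors (lowest, median, highest) and 0.389%, 2.33% and 6.85% in wild-type tumors of the pair Slc2a1 and Slc2a3. The share of 56.7% belonged to null tumor 5, the tumor with the least Slc2a1, and the next null tumor was at 13.35%, with a two-sided exact permutation p of 0.0878 for the difference (adjusted 0.3285).

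Ldha made up 83.5% to 99.3% of lactate dehydrogenase transcripts. The Ldhb share was 1.05%, 2.26% and 16.5% in null tumors (lowest, median, highest) and 0.736%, 2.56% and 3.555% in wild-type tumors and the mean share was 5.14 ± 5.19% (SD, n = 9) against 2.13 ± 1.025% (n = 7), exact permutation p = 0.164, adjusted over the 8 shares 0.3285. Null tumors 2 and 3 had the largest Ldhb shares, 16.5% and 10.3%. Among the lactate carriers Slc16a3 was the larger part in the mean of both groups, and the mean Slc16a1 share was 32.45 ± 8.20% (SD, n = 9) against 28.3 ± 12% (n = 7), exact permutation p = 0.421, adjusted over the 8 shares 0.5755. Pfkl gave 49.7 ± 5.43% of phosphofructokinase transcripts in null tumors (SD, n = 9) and 50.9 ± 6.28% in wild-type tumors (n = 7), and for Pfkp the mean share was 36.4 ± 6.67% (SD, n = 9) against 37.3 ± 3.37% (n = 7), exact permutation p = 0.7503, adjusted over the 8 shares 0.857. Eno2 took 5.05% to 45.2% of counted enolase in null and 17.1% to 52.02% in wild-type tumors (exact permutation test, p = 0.907 and adjusted p = 0.907), of a total in which Eno1 reads that align to more than 1 place are missing. The Aldoc share was 27.7% in wild-type tumor 1 and at most 9.275% in any other tumor (exact permutation p = 0.143, adjusted 0.3285). Pdk3 and Pdk1 were the main kinase forms, at 39.7% and 38.9% in the mean of null and 47.1% and 36.25% in the mean of wild-type tumors (for Pdk1 the exact permutation p = 0.432, adjusted 0.5755).

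**Figure D4:**
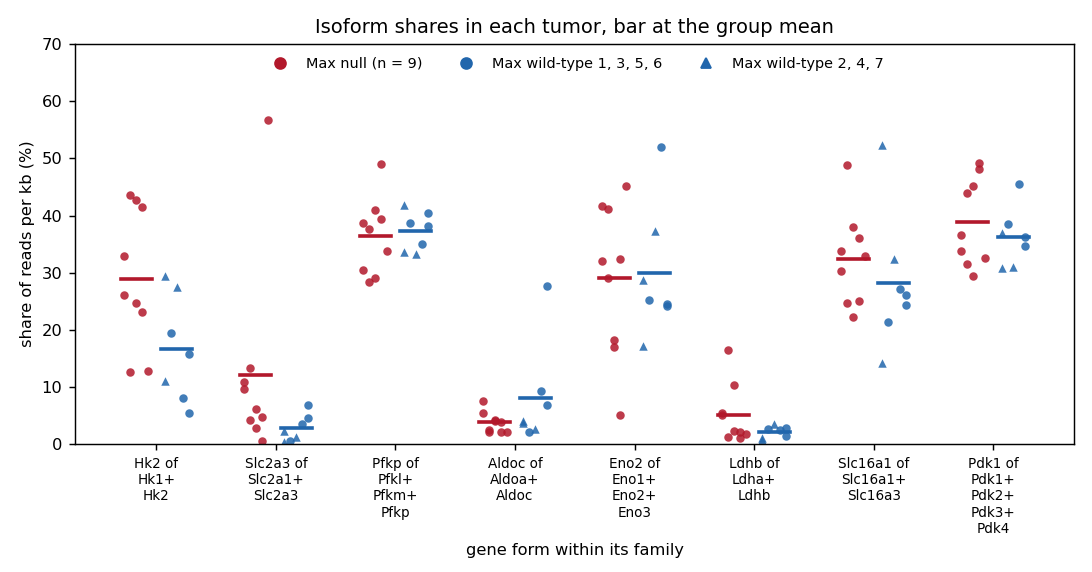
Share of reads per kb (y axis, %) of 1 gene within its family (x axis), with 1 point per tumor and a bar at each group's mean. Red circles are null tumors, blue circles wild-type tumors 1, 3, 5 and 6, and blue triangles wild-type tumors 2, 4 and 7. The groups overlap in each of the 8 families, with Hk2 centered at 28.9% and 16.7%.

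Longer transcripts tended to have the higher log2 differences, among these genes and among all genes. The 7 genes that rose have transcripts of 2246 to 5513 bases. Of the 14 genes with transcripts of 3000 bases or longer, 5 were called higher and the median log2 difference was 0.68, and of the 20 shorter ones, 2 were called higher (Pdk2 and Pdha1) and the median was -0.07. Over the 34 genes Pearson's r between the log2 difference and log2 length was 0.402 (Spearman's rho 0.415), and over 14660 tested genes with a known length it was 0.349, in each case across genes of the same libraries, which are not independent replicates. Without wild-type tumors 2, 4 and 7 the medians of the long and short genes were 0.67 and 0.21. After the length and GC correction r over the 34 genes was 0.158, with the 4 calls given above.

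**Figure D5:**
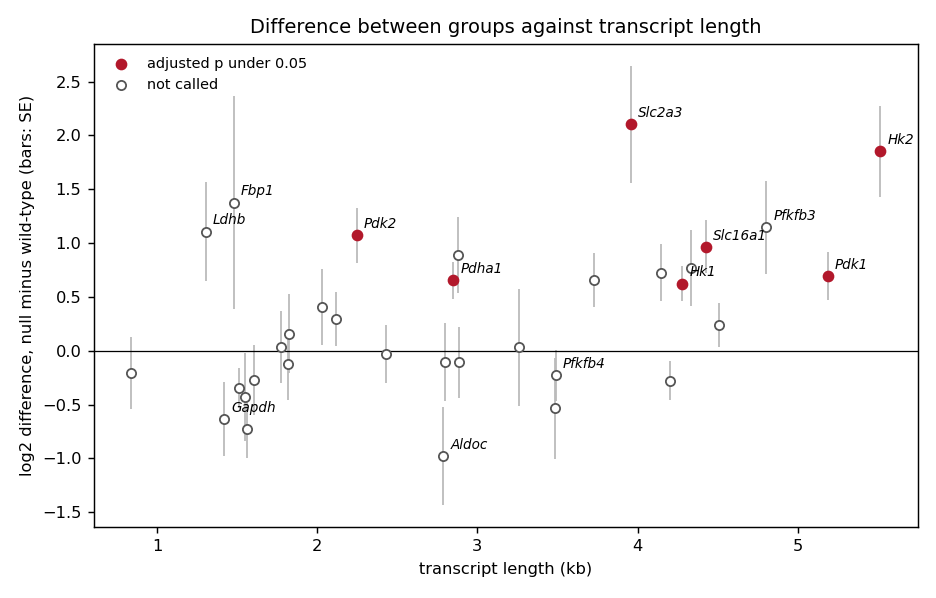
Log2 difference with SE (y axis) against transcript length in kb (x axis) for the 34 genes. Filled points passed the threshold, and 5 of the 7 lie beyond 3 kb. Of the genes shorter than 2 kb, Gapdh, Aldoa, Tpi1, Eno3, Ldha, Pdhb and Pgam2 lie below 0. Ldhb, Fbp1, Pgk1 and Pgam1, also shorter than 2 kb, lie above 0.

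Several of these genes share sequence with other annotated genes. The share of 50-base windows also found in another annotated gene was 82.5% for Gapdh, 72.2% for Eno1, 68% for Pgk1, 41.5% for Pgam1, 34.4% for Pkm2, 30.3% for Pdhb, 27% for Ldhb, 26.1% for Pfkfb2 and 25.3% for Gpi1. Of the 7 genes that rose it was 16.9% for Pdha1, 2.60% for Hk1 and 0.0% for Slc2a3, Hk2, Slc16a1, Pdk1 and Pdk2. Genes that overlap at the same place, on either strand, also count here, as Map3k15 can for Pdha1. Reads from such windows need not align to more than 1 place. The levels of the genes with a high share are uncertain, and the share of multiply aligned reads was higher in each wild-type tumor than in any null tumor. With that share as a covariate the log2 difference of Gapdh was 0.54, of Pgk1 0.71 and of Eno1 0.40, and none of the 3 was called.

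Of 42 other genes of glucose and pyruvate metabolism on a separate list, 35 could be tested, 6 rose, 1 fell and 28 did not pass, beside the 7.40% and 8.64% of all genes given above. Of those that rose, 4 handle the ends of the pathway: Hkdc1, a further hexokinase (2.10 ± 0.49, SE, adjusted p = 0.0111), Slc2a6, an intracellular glucose transporter (1.70 ± 0.53), G6pc3, the ubiquitous glucose-6-phosphatase (0.62 ± 0.19), and Pcx, the pyruvate carboxylase that feeds oxaloacetate to the citric acid cycle (1.16 ± 0.29, SE, adjusted p = 0.0154). Both of the others act on pyruvate dehydrogenase: Pdp2, a phosphatase that reactivates it (1.30 ± 0.33), and Pdpr, the regulatory subunit of that phosphatase (1.87 ± 0.52). Hkdc1 was a scarce transcript, at 1.63 to 7.16 CPM in null and 0.214 to 2.30 CPM in wild-type tumors. Slc2a6 was low as well, at 1.69 to 19.7 CPM in null and 0.459 to 4.35 CPM in wild-type tumors. Brp44l, now named Mpc1, encodes a subunit of the mitochondrial pyruvate carrier and fell by 0.83 ± 0.25, with 48.7 ± 8.47 CPM (SD, n = 9) against 86.99 ± 45.6 CPM (n = 7) in null and wild-type tumors (adjusted p = 0.0332). Wild-type tumors 2, 4 and 7 stood at 123.9, 115.8 and 159.8 CPM. The other wild-type tumors, at 43.7 to 62.8 CPM, lay inside the null range of 38.9 to 65.5 CPM. Only Pcx was called without wild-type tumors 2, 4 and 7, and without null tumor 2, 6 or 8 the list gave 4 calls, Hkdc1, Pcx, Pdp2 and Pdpr in each case.

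In bulk tumors a change in the number of cells of one type and a change in RNA per cell cannot be told apart. Markers of other cell types were therefore measured beside the 34 genes. Of 9 macrophage markers, 4 fell (Cd68, C1qa, C1qb and C1qc, by 0.83 to 1.34 on the log2 scale), 0 rose and 5 did not pass, where 8.64% of all genes were called lower, and they summed to 150.2 to 317 CPM in null tumors and 223 to 745 CPM in wild-type tumors. Of 5 neutrophil markers 1 fell, Cxcr2, and the sum was 17.7 to 57.9 CPM in null tumors and 35.8 to 102 CPM in wild-type tumors. The 6 T cell markers, of which Lck fell, summed to 3.86 to 15.6 CPM in null tumors and 5.05 to 31.7 CPM in wild-type tumors. Alveolar type 2 cell markers summed to 673 to 2893 CPM in null tumors and 134 to 2001 CPM in wild-type tumors, of which Abca3 rose (1.25 ± 0.22), and fibroblast and endothelial markers gave 0 calls, at 293 to 1277 CPM in null tumors and 176 to 718 CPM in wild-type tumors and at 134 to 1637 CPM in null tumors and 329.8 to 957 CPM in wild-type tumors. The 5 red cell markers summed to 3.44 to 17.7 CPM in null tumors and 2.43 to 15.3 CPM in wild-type tumors. Only 1 of the 5 could be tested, and it was not called. Hba-a1 and Hba-a2 had 0 reads in every tumor and most of each sum was Alas2, so the sum is mainly the level of 1 gene. Without wild-type tumors 2, 4 and 7 the calls of the macrophage, neutrophil and T cell markers were all lost and that of Abca3 was kept, and with the covariate named above 0 of these markers were called. Of the 4 macrophage calls, 2 (C1qb and C1qc) were kept with the correction for length and GC content, and the same 2 without wild-type tumor 7 alone. The part of any of these cells in the differences of the 34 genes was not tested.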

How the data were processed

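RNA of 16 mouse lung tumors was sequenced from total RNA libraries. The authors deposited raw counts of reads per gene symbol, whole numbers that were not normalized. Per the submitters' processing notes the tools were bcl2fastq 1.8.4, TopHat2 2.0.12 and HTSeq 0.6.1, with build mm9, and strand handling is not given in the sources used here. Rows that name no gene held 29.2% to 45.65% of reads and were left out.

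Counts were scaled by TMM, filtered with filterByExpr and tested with edgeR 4.0.16 (quasi-likelihood test, Benjamini-Hochberg, threshold 0.05; R 4.3.3) on all genes with no covariate. Scripts were tested on simulated data. Alternatives were edgeR RLE scaling, DESeq2 1.42.0, limma-voom 3.58.1, no filter, at least 5 CPM in 7 tumors, a replicate block, the multiply aligned share as covariate, omission of wild-type tumors 2, 4 and 7, a length and GC correction, and omission of each tumor. Shares used reads per kb of transcript and a two-sided exact permutation test written with numpy 2.4.6. Lengths and shared 50-base windows came from GENCODE transcripts on GRCm38, which is not the build of the counts, so only symbols were used (22824 of 23284 matched, 34 of 34 members, Pkm2 as Pkm); promoters are RefSeq's. No 2 libraries were alike within sampling noise (smallest chi-square per degree of freedom 34.5). Every listed gene is named, with Max and the called genes of the other metabolic lists; marker genes are named where a list needs them. A few other genes (G6pdx, Tkt, Mlx, Txnip) were named after their values were seen. The members and lists were chosen with earlier results of these data known.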

Additional observations from a re-analysis of the deposited data

Results flagged for a closer look

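A value was taken as far from its group where its gap to the nearest tumor, divided by the range of the group, passed Dixon's 95% limit (0.493 for 9 tumors, 0.568 for 7). This held in 14 of 84 groups of values, each time for the highest tumor. The limit flags about 1 in 20 among independent groups of normally distributed values. Groups of CPM and shares from the same libraries are not independent and need not be normal, so that rate is no benchmark for the 14. Wild-type tumor 7 accounts for 7 of the 14, as the highest of its group: Slc2a1 at 455 CPM, Gpi1 at 1665 CPM, Aldoa at 3591 CPM, Tpi1 at 2405 CPM, Gapdh at 3521 CPM, Pkm2 at 3353 CPM and Ldha at 3773 CPM. The same library had the highest multiply aligned share of the 16, 22.2%, and the highest hypoxia list sum of its group, 2647 CPM. Its TMM-scaled size was 7.416 M for 9.928 M reads in genes, and the part of any of these was not tested.

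Null tumor 5 stood apart in Slc2a3, at 36.4 CPM with the next at 14.8 CPM, and in the Slc2a3 share, at 56.7% with the next at 13.35%. Null tumor 4 had Fbp1 at 682 CPM, with the next at 48.9 CPM. Wild-type tumor 1 had the highest Aldoc share, 27.7% with the next at 9.275%. Eno2 was at 79.4 CPM in wild-type tumor 5, Pdk4 at 17.4 CPM in wild-type tumor 6 and Pgam2 at 3.23 CPM in null tumor 8.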

How the results depend on the processing

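Of 849 log2 differences of the 34 genes under alternative settings, 748 kept their direction and their side of the threshold, 33 lost a call, 10 gained one and 58 changed sign, and the cause of these changes was not tested. DESeq2 called 3612 genes in all, against 2378 in the edgeR test, and 9 of the 34. The multiply aligned share as a covariate left 10 calls over all genes, 0 among the 34 and 0 among the other genes of the pathway. Without wild-type tumors 2, 4 and 7 there were 256 (1.68% of those tested), 1 and 1. After the length and GC correction there were 1595 (10.8%), 4 and 4. With the tumor number as a replicate block there were 318 (2.15%), 2 (Slc2a3 and Hk2) and 2. That block left 0 calls in the pentose phosphate, glucose-responsive and hypoxia lists. The numbers share a label only: correlations of deviations between same-numbered tumors ran from -0.173 to 0.25, and 0 of 7 wild-type tumors correlated best with their own number. With 1 tumor left out the calls were 1471 (without wild-type tumor 4; 1555 without wild-type tumor 7) to 3033 over all genes, 6 to 9 higher and 0 to 1 lower among the 34 (Eno3, without wild-type tumor 5 or 6), and 4 to 8 among the other genes of the pathway. Pdk1 was the 1 call of the 7 lost in any of these 16 fits.

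Log2 differences that changed sign were, with the block, Slc2a1 -0.26, Pgk1 -0.12, Eno2 0.057 and Fbp1 -0.38; with the covariate, Gpi1 0.89, Pfkfb2 -0.36, Aldoa 0.76, Tpi1 0.71, Gapdh 0.54, Pkm2 0.52, Ldha 0.93 and Pdhb 0.11; without wild-type tumors 2, 4 and 7, Gpi1 0.40, Pfkfb4 0.040, Aldoa 0.17, Tpi1 0.20, Gapdh 0.021, Pkm2 0.21 and Ldha 0.43. They were Gpi1 0.24, Pgam2 0.24, Pkm2 0.10 and Ldha 0.13 with limma-voom, Pkm2 0.029 with no filter on low counts, Slc2a1 -0.18 and Ldha 0.086 after the length and GC correction, and Fbp1 -0.80 with DESeq2. With 1 tumor left out the ranges of those that changed sign were Slc2a1 -0.31 to 0.81, Gpi1 -0.25 to 0.35, Aldoa -0.58 to 0.084, Tpi1 -0.39 to 0.12, Pgk1 -0.058 to 0.38, Pgam1 -0.10 to 0.35, Pgam2 -0.35 to 0.034, Eno2 -0.30 to 0.14, Pkm2 -0.19 to 0.22, Ldha -0.25 to 0.30 and Fbp1 -0.80 to 1.96. Share differences that changed sign, in percentage points, ranged over -2.499 to 0.07802 for Pfkp and -2.92 to 2.897 for Eno2. The Slc2a3 share difference was 3.795 points without null tumor 5, and the Aldoc one -0.929 without wild-type tumor 1. Between 8.665 and 15.1 M reads per library, Slc2a3, Pgam2 and Pdk4 had the lowest levels of the 34 genes.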

Other observations

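Genes of the pentose phosphate pathway, which branches from glycolysis after hexokinase and makes NADPH and ribose, gave 1 call, lower, among 8 tested of 9 listed, where 8.64% of all genes were called lower. Pgls, encoding 6-phosphogluconolactonase, fell by 0.99 ± 0.28 (SE, adjusted p = 0.0263, edgeR's quasi-likelihood test), a call that was lost without wild-type tumors 2, 4 and 7, with the share of multiply aligned reads as a covariate and with the length and GC correction, which called Rpia higher instead. It measured 35.3 to 64.03 CPM (median 49.4) in null and 53.6 to 274 CPM (median 71.3) in wild-type tumors. The other 7, among them the rate-limiting dehydrogenase gene G6pdx at 0.15 ± 0.23 and the transketolase gene Tkt at 0.16 ± 0.23, did not pass.

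Among 5 genes that sense or respond to glucose, Mlxip, whose product MondoA pairs with MLX to bind carbohydrate response elements, rose by 0.56 ± 0.13, SE, adjusted p = 0.0109. It measured 78.7 to 117 CPM (median 91.97) in null and 49.9 to 81.2 CPM (median 65.8) in wild-type tumors, so that only the lowest null tumor lay inside the wild-type range. The call of Mlxip was lost in the same alternatives, the length and GC correction calling Mlxipl lower instead, and 7.40% of all genes were called higher. Its partner gene Mlx was at -0.19 ± 0.19 and its target Txnip at 0.19 ± 0.32, and neither passed. Of 13 hypoxia-responsive genes outside glycolysis, 1 fell and 12 did not pass, a share close to the 8.64% of all genes called lower. Bnip3l, a mitophagy receptor gene, fell by 0.67 ± 0.17 (SE, adjusted p = 0.01602), with 321.5 to 610.2 CPM in wild-type tumors against 178 to 302.5 CPM in null tumors, 2 ranges that did not overlap (1.56% of all tested genes had such ranges). The call of Bnip3l was lost without wild-type tumors 2, 4 and 7, with the covariate and with the replicate block. It was kept with the length and GC correction.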
